A study of Mus musculus with 17 samples.

Results

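NRF2, encoded by Nfe2l2, is a transcription factor that switches on genes against oxidants and electrophiles. The 10 genes described here are Nfe2l2 itself, its repressor Keap1, and 8 genes that NRF2 is known to activate, namely Hmox1, Nqo1, Gclc, Gclm, Txnrd1, Srxn1, Slc7a11 and Gsr. They were chosen by gene name with earlier results of these data known, among them the Ser5P values of Hmox1, so the values below are descriptions and carry no test. All 10 were found among the 36172 genes of the table, and each has a promoter and a gene body value in 4 ChIP-seq libraries.

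The libraries came from C57Bl/6 mouse embryonic fibroblasts, primary cells that had been infected with a lentiviral hairpin against Rpap1 (shRPAP1 #5) or with a non-targeting hairpin (SCR), held under puromycin and harvested at day 3. RPAP1 binds RNA polymerase II (Pol II), and the comparison asks how Pol II lies on genes once RPAP1 is depleted. Chromatin of 3 pooled lines was precipitated with an antibody to all Pol II (N-20) or with one to its serine-5-phosphorylated form (Ser5P), which marks polymerase early in transcription, giving 1 library per condition and antibody. The series has 17 samples, of which the 12 RNA-seq samples and the input are not analysed here.

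KEAP1 holds NRF2 in the cytoplasm and directs it to a CUL3 ubiquitin ligase for degradation. Oxidants and electrophiles modify cysteines of KEAP1, so that new NRF2 accumulates, enters the nucleus, pairs with a small MAF protein and binds antioxidant response elements in its target genes. Fibroblasts carry this pathway as a general stress response, and several of its target genes, such as Hmox1 and Slc7a11, also answer to other factors.

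No library had a replicate, so every difference is between single libraries, and how these were scaled to depth is not stated in the sources used here. In pooled cells, fewer cells with Pol II on a gene and less Pol II per cell cannot be told apart. Promoter signal summed over all genes corresponded to 129639 reads for total Pol II in SCR, 71277 in shRPAP1, and to 290756 and 156207 for Ser5P. Of 8 fibroblast markers, between 6 and 8 lay above background in each library and region, while of 29 markers of other cell types at most 3 did. The 1589 olfactory, vomeronasal and trace amine receptor genes, taken as background, had more signal in shRPAP1. For total Pol II their mean gene body signal was 6.53 in SCR against 11.95 in shRPAP1, and for Ser5P 5.48 against 9.56. Their mean promoter signal was 7.79 against 13.3 for total Pol II and 6.46 against 9.67 for Ser5P. The Rpap1 gene itself had a body signal of 14.3 in each total Pol II library, but a hairpin acts on the RNA, so this does not check the depletion.

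Promoter windows of 7 of the 10 genes, from 250 bases before to 50 bases after a transcription start, were found in RefSeq on GRCm38.p6, and none is given for Hmox1, Gclc and Gsr. Those of 4 genes are shown here as examples with and without matches, with the core of the antioxidant response element (TGACNNNGC or TGAGNNNGC) and that of the C/EBP-ATF response element (TGATGNAA) in capitals, on either strand. Slc7a11 (chr3:50443564-50443863, minus strand), had more signal in shRPAP1 in each of the 4 comparisons as deposited, at low levels described below. It has a pair of TGATGCAA matches facing each other at -66 and -47 and a TGAGNNNGC match at -97, counted from the start. Srxn1 (chr2:152105274-152105573, plus strand) has TGAGNNNGC matches at -158 and -45, the latter reading TGAGTCAGC, and a TGACNNNGC match at 29. The window of Txnrd1 shown is the second of its 3 annotated starts (chr10:82858956-82859255, plus strand), with TGACAAAGC at -92 on the opposite strand. Nqo1 (chr8:107403156-107403455, minus strand) has no match in its window and is shown beside them for that.
Slc7a11: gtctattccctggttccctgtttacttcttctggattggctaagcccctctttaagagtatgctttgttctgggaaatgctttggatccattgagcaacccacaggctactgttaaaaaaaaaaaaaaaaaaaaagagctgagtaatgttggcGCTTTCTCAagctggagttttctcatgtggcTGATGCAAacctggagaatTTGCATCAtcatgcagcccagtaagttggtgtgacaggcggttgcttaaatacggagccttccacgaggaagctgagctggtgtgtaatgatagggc
Srxn1: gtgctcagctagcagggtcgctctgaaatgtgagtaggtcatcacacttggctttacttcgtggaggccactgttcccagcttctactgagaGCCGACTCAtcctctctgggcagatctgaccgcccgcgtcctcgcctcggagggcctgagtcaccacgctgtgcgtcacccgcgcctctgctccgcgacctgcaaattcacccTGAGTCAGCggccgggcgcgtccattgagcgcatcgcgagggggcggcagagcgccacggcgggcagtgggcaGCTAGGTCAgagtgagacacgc
Txnrd1: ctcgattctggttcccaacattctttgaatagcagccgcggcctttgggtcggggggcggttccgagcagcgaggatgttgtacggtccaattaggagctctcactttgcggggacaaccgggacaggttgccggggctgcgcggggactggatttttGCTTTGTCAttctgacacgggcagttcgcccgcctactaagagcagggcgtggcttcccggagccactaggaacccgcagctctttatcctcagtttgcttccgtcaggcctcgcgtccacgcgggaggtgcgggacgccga
Nqo1: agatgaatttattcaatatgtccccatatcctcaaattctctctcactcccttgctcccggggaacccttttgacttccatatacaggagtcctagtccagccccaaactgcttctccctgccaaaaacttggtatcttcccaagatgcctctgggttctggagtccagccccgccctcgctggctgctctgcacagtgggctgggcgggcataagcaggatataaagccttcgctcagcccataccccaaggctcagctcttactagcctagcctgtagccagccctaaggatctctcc

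Of the windows not shown, Nfe2l2 has TGACTCCGC at -240 and Gclm has TGACGGTGC at -134, while Keap1 and the other windows of Txnrd1 have no match. TGACNNNGC was found in the windows of 4 of these 7 genes and in 12.4% of all 32851 windows, TGAGNNNGC in 2 of 7 and 17.6%, and TGATGNAA in 1 of 7 and 3.97%. The units differ: the 7 genes have 9 windows, 3 of them of Txnrd1, and are counted by gene, whereas the percentages count windows. GC content ranged from 44.7% (Slc7a11) to 79.7% (Gclm), with a median of 52.7% over all windows. A match describes the letters only, and elements outside these 300 bases were not searched.

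In SCR cells the 10 genes fell into a highly occupied trio and a less occupied remainder. Hmox1, which degrades heme, Nfe2l2, and Txnrd1, the cytosolic thioredoxin reductase, held total Pol II promoter signals of 867, 845 and 720, and those of the other 7 genes ran from 70.7 (Slc7a11) to 185 (Srxn1). The same trio led with Ser5P, at 1985, 1862 and 1626, and the rest ran from 10.8 (Gsr) to 726 (Srxn1). Over gene bodies, where signal is per base, Hmox1 held 160, Txnrd1 157 and Nfe2l2 144 with total Pol II, followed by Srxn1 at 56.1, Keap1 at 43.0, Gclm at 35.5, Gclc at 28.6, Gsr at 27.8, Slc7a11 at 17.3 and Nqo1 at 10.4. Counting intervals of neighbours in this body order did not overlap between Nfe2l2 and Srxn1 or between Gsr and Slc7a11, and overlapped for the other 7 of 9 pairs. At promoters they separated only Txnrd1 from Srxn1, with each antibody. The body values of Nqo1 and Slc7a11 lay below the 95th percentile of the receptor genes in each of the 4 libraries, so these bodies counted as not measured, whereas the promoters of all 10 genes were measured.

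**Figure D1:**
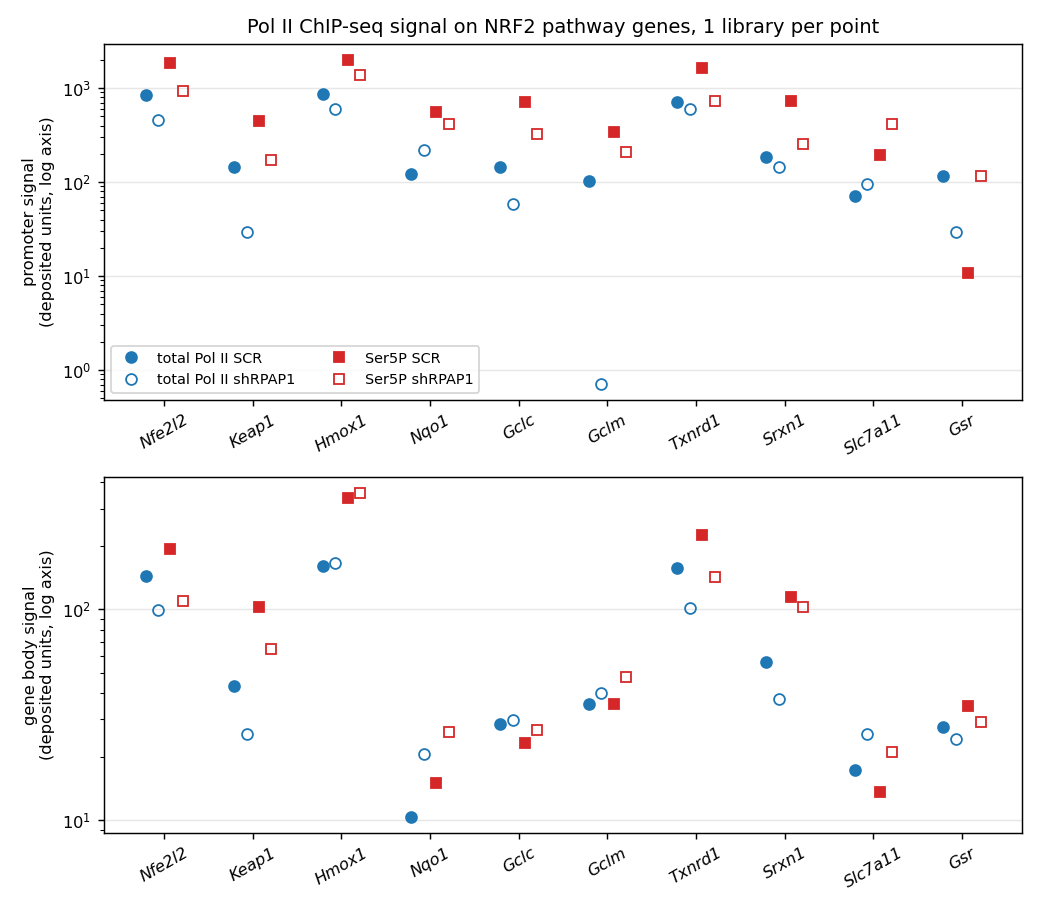
Promoter (top) and gene body (bottom) signal of the 10 genes on log axes, in the deposited units, with circles for total Pol II, squares for Ser5P, filled symbols for SCR and open symbols for shRPAP1; each point is 1 library. Hmox1, Nfe2l2 and Txnrd1 stand highest, the open circle of Gclm lies at the promoter floor of 0.72, and the open symbols of Hmox1 meet the filled ones over the gene body but not at the promoter.

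Nfe2l2 and Keap1, the factor and its repressor, held less Pol II in shRPAP1 in all 4 comparisons. In each pair of values below SCR comes first and shRPAP1 second, and the log2 ratio of shRPAP1 over SCR follows with its 95% interval, which covers counting error only. The body of Nfe2l2 (chr2:75675513-75704663, minus strand) held total Pol II signals of 144 and 98.9, about 435 and 300 reads (-0.54, -0.75 to -0.32). With Ser5P it held 193 and 110 (-0.81, -1.01 to -0.62). Its promoter held 845 and 455 with total Pol II (-0.89, -1.84 to 0.07) and 1862 and 926 with Ser5P (-1.01, -1.68 to -0.39). These ratios lay between the 41.8th and 58.7th percentiles of the measured genes and between the 51.8th and 78.8th among genes of the same decile of occupancy. Keap1 (chr9:21229730-21239332, minus strand) held 43.0 and 25.6 over its body with total Pol II (-0.74, -1.52 to -0.00060) and 102 and 64.5 with Ser5P (-0.66, -1.15 to -0.20). Its promoter held 145 and 29.6 with total Pol II, worth about 5 reads and 1 read, and 442 and 174 with Ser5P, worth 15 and 6, and for both the interval held 0.

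Hmox1 (chr8:75093618-75100593, plus strand) had nearly the same gene body signal in both conditions, as deposited, whereas the median gene held less in shRPAP1. Its body held 160 and 165 with total Pol II, about 112 and 115 reads (0.04, -0.35 to 0.43), and 336 and 355 with Ser5P, about 236 and 249 reads (0.08, -0.19 to 0.34). Both intervals lay above the median of all measured bodies, which was -0.55 with total Pol II and -0.70 with Ser5P. Among genes of the same decile of occupancy, ranked by the SCR library of the other antibody, Hmox1 stood at the 93.8th percentile with total Pol II and the 95.6th with Ser5P. Its rank by level over all genes went from the 96.9th to the 99.0th percentile of total Pol II bodies and from the 98.0th to the 99.4th of Ser5P bodies. At the Hmox1 promoter the signals were 867 and 603 with total Pol II (-0.52, -1.39 to 0.34) and 1985 and 1372 with Ser5P (-0.53, -1.09 to 0.03), differences within counting error. With the receptor genes set equal between the libraries, the body ratios of Hmox1 were -0.83 and -0.72. With the other silent genes set equal they were -0.10 and 0.14. Whether its body signal is near-equal thus depends on the scaling, and the statement is about the values as deposited.

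Gclc (chr9:77754535-77794489, plus strand) and Gclm (chr3:122245557-122267215, plus strand) encode the catalytic and the modifier subunit of glutamate-cysteine ligase, the first step of glutathione synthesis. Over the body Gclc held 28.6 and 29.8 with total Pol II (0.06, -0.32 to 0.43) and 23.3 and 26.7 with Ser5P (0.19, -0.21 to 0.60). Gclm held 35.5 and 40.3 with total Pol II (0.18, -0.28 to 0.62) and 35.5 and 47.9 with Ser5P (0.43, 0.0025 to 0.87), about 80 and 108 reads. As for Hmox1, these 4 intervals lay above the median of measured bodies, but the receptor means make up a larger share of such low signals: with the mean background subtracted the ratios were -0.30 and -0.06 for Gclc, and -0.03 and 0.35 for Gclm. With the receptor genes set equal they were -0.81 and -0.61 for Gclc, and -0.69 and -0.37 for Gclm, so the direction of both genes turned. With the other silent genes set equal they were -0.08 and 0.25 for Gclc, and 0.04 and 0.49 for Gclm. At promoters both subunits held less in shRPAP1. Gclc held 710 and 324 with Ser5P, about 25 and 11 reads (-1.13, -2.36 to -0.11), and 144 and 58.4 with total Pol II, about 5 and 2 reads. Gclm held 343 and 207 with Ser5P (-0.73, -2.36 to 0.68), and with total Pol II 104 in SCR, about 4 reads, and no coverage in shRPAP1, for which no fold is given because 4 reads lie close to the limit of 3 that a count of 0 allows.

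Txnrd1 (chr10:82833951-82897724, plus strand) had the most gene body reads of the 10 genes and the narrowest intervals. Its body held 157 and 101 with total Pol II, about 1046 and 675 reads (-0.63, -0.77 to -0.49), and 225 and 142 with Ser5P, about 1502 and 948 reads (-0.66, -0.78 to -0.55). The first ratio lay at the 43.2nd and the second at the 52.4th percentile of all measured bodies, but at the 79.0th and 86.2nd among bodies of like occupancy. Its promoter held 720 and 602 with total Pol II (-0.26, -1.16 to 0.64) and 1626 and 729 with Ser5P (-1.16, -1.91 to -0.46). Which of its 3 annotated starts the table uses is not given in the sources used here. Srxn1 (chr2:152105524-152111376, plus strand), sulfiredoxin, which repairs over-oxidised peroxiredoxins, held 56.1 and 37.7 over its body with total Pol II (-0.57, -1.43 to 0.24) and 114 and 102 with Ser5P (-0.15, -0.67 to 0.39). Its Ser5P promoter signal was 726 and 252, about 25 and 9 reads (-1.52, -2.76 to -0.33), and its total Pol II promoter signal 185 and 145, about 6 and 5 reads. Gsr (chr8:33653238-33698162, plus strand), glutathione reductase, held 27.8 and 24.2 over its body with total Pol II (-0.20, -0.58 to 0.17) and 34.7 and 29.2 with Ser5P (-0.24, -0.58 to 0.10). With Ser5P the body intervals of Srxn1 and Gsr also lay above the median of measured bodies (-0.70), while with total Pol II they held the median (-0.55). The Gsr promoter held 116 and 29.6 with total Pol II, but 10.8 and 116 with Ser5P, at most about 4 reads in any library, so the opposite signs of the antibodies lie within counting error.

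Slc7a11 (chr3:50364936-50443613, minus strand), the cystine importer subunit xCT, and Nqo1 (chr8:107388225-107403205, minus strand), a quinone reductase, had more gene body signal in shRPAP1 with both antibodies, with intervals above 0, but at levels that background reaches. The Slc7a11 body held 17.3 and 25.7 with total Pol II, about 143 and 212 reads (0.56, 0.26 to 0.88), and 13.6 and 20.9 with Ser5P (0.61, 0.27 to 0.98). The Nqo1 body held 10.4 and 20.6 with total Pol II, about 16 and 32 reads (0.96, 0.09 to 1.96), and 14.9 and 26.1 with Ser5P (0.79, 0.02 to 1.61). The receptor genes, which are silent in fibroblasts, had log2 ratios of their body means of 0.87 and 0.80, and these lie inside the intervals of both genes. With the receptor genes set equal the ratios were -0.31 and -0.19 for Slc7a11, and 0.09 and -0.01 for Nqo1. With the other silent genes set equal they were 0.42 and 0.67 for Slc7a11, and 0.82 and 0.85 for Nqo1. The part of background in the difference was not tested. The Slc7a11 promoter held 70.7 and 95.2 with total Pol II, about 2 and 3 reads, and 196 and 413 with Ser5P, about 7 and 14 reads (1.07, -0.40 to 2.55). With the receptor genes set equal these promoter ratios were -0.34 and 0.49, so 3 of the 4 ratios of Slc7a11 turned. The Nqo1 promoter held 123 and 221 with total Pol II, about 4 and 8 reads (0.84, -0.90 to 3.18), but 551 and 414 with Ser5P (-0.41, -1.55 to 0.63). The intervals of these promoters all held 0, so no direction is read from them. Those of Nqo1 with total Pol II and of Slc7a11 with Ser5P lay above the medians of all measured promoters (-1.07 and -0.97), and the others held them.

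**Figure D2:**
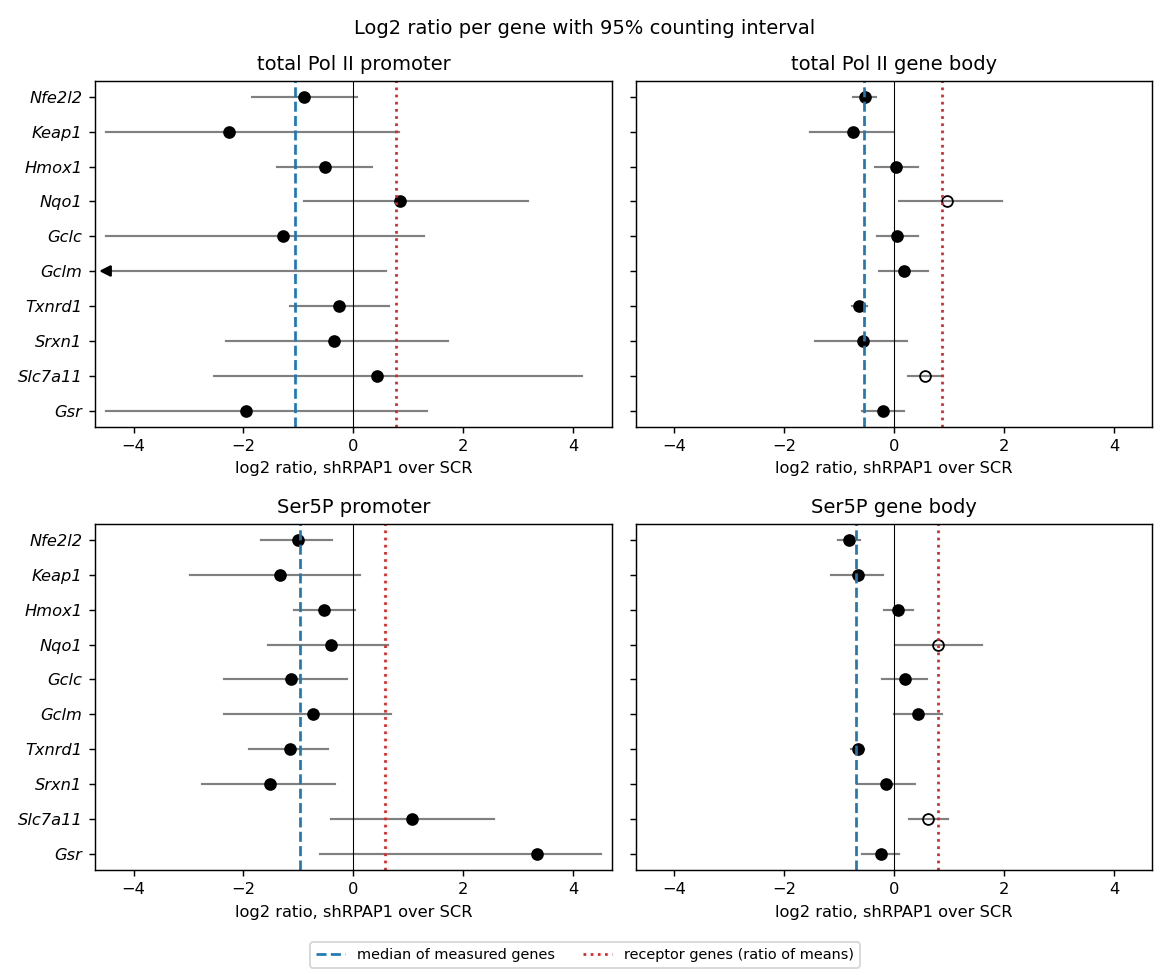
Log2 ratio of shRPAP1 over SCR for each gene in the 4 comparisons, with 95% counting intervals as bars (cut at the edge of the axis; the arrow marks Gclm, with no coverage in shRPAP1; the point of Gsr at the Ser5P promoter rests on less than 1 read in SCR). Filled points are measured and open points lie below the background threshold; the dashed line is the median of all measured genes and the dotted line the ratio of the receptor means. Bodies of Hmox1 and Gclc lie near 0 and those of Gclm at 0.18 and 0.43, with intervals right of the dashed line. With Ser5P the body intervals of Srxn1 and Gsr also lie right of it. Body points of Nfe2l2, Keap1 and Txnrd1 lie on or close to it.

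Counted at a 1.5-fold difference, the 10 genes were set beside all measured genes. At promoters 5 of 10 genes were at least 1.5-fold lower in total Pol II (69.2% of all 14423 measured promoters) and 1 was higher (7.4%), and with Ser5P 6 of 10 were lower (68.5% of 17178) and 2 higher (11.8%). With libraries under 1 read set to the limit of 3 reads, Gclm left the first of these counts (4 lower) and Gsr the last (1 higher). Over bodies 2 of the 8 measured genes were at least 1.5-fold lower in total Pol II (46.7% of 14288) and 0 higher (8.6%), and with Ser5P 3 of 8 were lower (57.4% of 17810) and 0 higher (8.65%). The median log2 ratio of the members' measured bodies was -0.37 with total Pol II, against -0.55 for all measured bodies, and -0.20 against -0.70 with Ser5P. These member medians depended on the setting. Under the stricter filter they were -0.54 (3 bodies) with total Pol II and -0.66 (5 bodies) with Ser5P. With the mean background subtracted they were -0.70 and -0.39, and without a filter -0.078 and -0.038. The medians of all bodies under these settings are not given here. At promoters the medians were -0.71 against -1.07 with total Pol II, or -0.44 with Gclm at its bound, and -0.87 against -0.97 with Ser5P. Several members passed the filter through 1 library alone. These were 4 of the 5 lower total Pol II promoters (Keap1, Gclc, Gclm and Gsr, through SCR), 1 of the 2 lower total Pol II bodies (Keap1, through SCR) and 1 of the 2 higher Ser5P promoters (Gsr, through shRPAP1). Gclc and Gsr passed the body filter through SCR alone with each antibody. These shares therefore only describe these libraries. The counts depend on scaling and filter. Over bodies, with the receptor genes set equal 8 of 8 were lower in total Pol II and 7 of 8 in Ser5P, and once the median ratio of all genes was set to 1, 0 were lower and 3 higher with each antibody. At promoters that last setting left 3 lower in total Pol II and 0 in Ser5P and turned both medians (0.36 and 0.098), while 1 total Pol II promoter was lower under the stricter filter. With the other silent genes set equal 9 promoters were lower in total Pol II and 4 in Ser5P, and over bodies 4 and 3.

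How the signal divided between promoter and body differed among members. In SCR the log2 of promoter over gene body signal ranged from 1.54 (Gclm) to 2.56 (Nfe2l2) with total Pol II among the 8 genes with a measured body. With Ser5P it was 4.91 for Gclc, the 97.3rd percentile of 14047 genes measured in both regions, with a body signal (23.3) close to the background threshold (18.7). Nqo1 had 3.53 with total Pol II and 5.18 with Ser5P, but over a body at background, so these ratios are not exact. The ratio was smaller in shRPAP1 for 8 of 10 genes with each antibody, as were the medians over all such genes (1.82 and 1.33 for total Pol II, 2.60 and 2.40 for Ser5P). The share of all genes with a smaller ratio was not counted, so the 8 are not set against it. Among them are Nqo1, with total Pol II Slc7a11, both over unmeasured bodies, and Gclm, without total Pol II promoter coverage in shRPAP1. Log2 ratios of the receptor means were also larger over bodies (0.87 and 0.80) than at promoters (0.77 and 0.58). Hmox1 had promoter over body ratios of 2.44 (SCR) and 1.87 (shRPAP1) for total Pol II, and of 2.56 and 1.95 for Ser5P. The exceptions were Txnrd1 and Srxn1 with total Pol II, and Slc7a11 and Gsr with Ser5P.

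**Figure D3:**
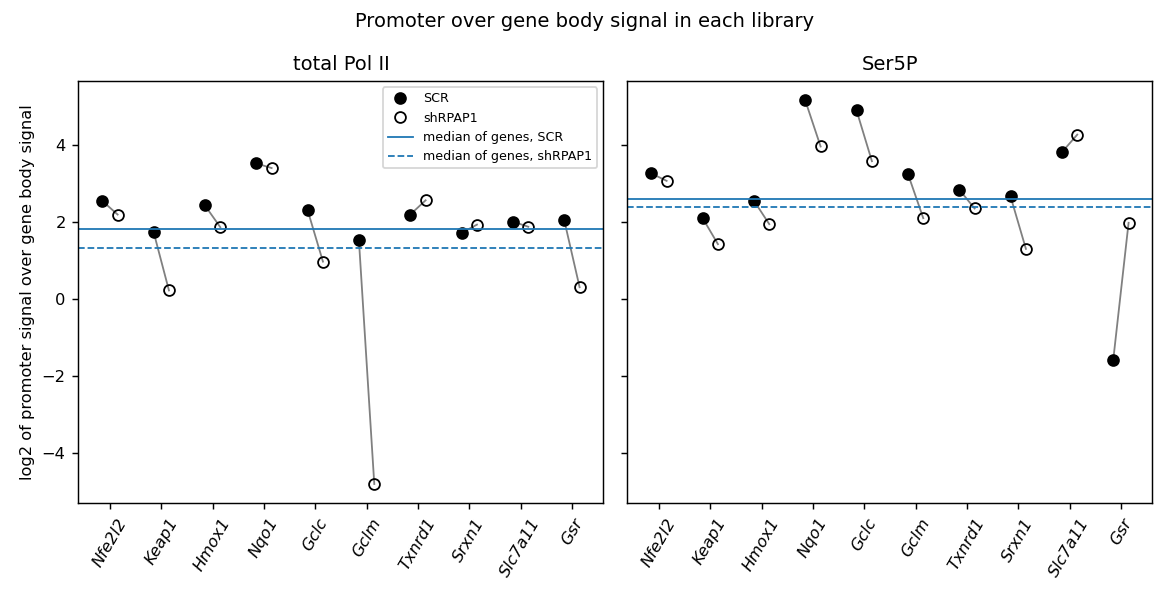
Log2 of promoter over gene body signal of the 10 genes for total Pol II (left) and Ser5P (right), with filled points for SCR and open points for shRPAP1, 1 library each; the lines are the medians over all genes measured in both regions. Open points lie below filled ones for 8 of 10 genes in each panel, and the far low points are Gclm and Gsr, whose promoters held no more than about 4 reads in those libraries.

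The shortest genes had the most Ser5P relative to total Pol II over their bodies, but among the longer genes the ratio did not follow length. Srxn1 (5853 bases), Hmox1 (6976 bases) and Keap1 (9603 bases) had log2 ratios of Ser5P over total Pol II of 1.02, 1.07 and 1.24 in SCR, between the 81.4th and 86.9th percentiles of 18994 genes, and of 1.43, 1.11 and 1.32 in shRPAP1. The lowest ratios were those of Slc7a11 (78678 bases, -0.34 in SCR) and Gclc (39955 bases, -0.29), while Txnrd1, of 63774 bases, had 0.52. Gclm, of 21659 bases, had 0.00040 in SCR, and Gsr, of 44925 bases, had 0.32. The Slc7a11 body counted as not measured, and that of Gclc lay close to the Ser5P background threshold in SCR (23.3 against 18.7). The mean body signal of the receptor genes in SCR was also lower with Ser5P (5.48) than with total Pol II (6.53). The parts of length and signal level in the order of these ratios were not tested. In shRPAP1 the ratio was larger than in SCR for 6 of the 10 genes, but by little for Hmox1, Keap1 and Slc7a11 (-0.29 in shRPAP1). The share of all genes with a larger ratio was not counted, so the 6 are not set against it. The median over all genes was 0.33 in SCR and 0.10 in shRPAP1. At promoters in SCR it ranged from 1.14 (Nfe2l2) to 2.30 (Gclc) apart from Gsr, whose Ser5P promoter held less than 1 read.

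The gene nearest to Slc7a11, the member with the highest mean of its 4 ratios, was mt-Cytb, at a Euclidean distance of 0.42 over the 4 log2 ratios, among 708 genes well above background in every library. The next were mt-Rnr1, mt-Nd4, mt-Co2 and mt-Nd6, at 0.61 to 0.73, so all 5 are encoded in mitochondrial DNA, which Pol II does not transcribe. Slc7a11 itself was not among the genes well above background. Its total Pol II promoter ratio rests on about 2 and 3 reads (interval -2.54 to 4.17), so these distances lie within counting error. What the likeness rests on was not tested.

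The wider pathway, a list of 100 genes in 7 groups of which 99 are in the table, held less Pol II in shRPAP1 as most genes did. At total Pol II promoters 66 of 83 measured genes were at least 1.5-fold lower (69.2% of all measured promoters) and 4 higher (7.4%). At Ser5P promoters 64 of 89 were lower (68.5%) and 6 higher (11.8%). Over bodies 36 of 69 were lower in total Pol II (46.7%) and 1 higher (8.6%), with a median of -0.61. In Ser5P 48 of 88 bodies were lower (57.4%) and 0 higher (8.65%), with a median of -0.62. Only the lower bodies were close to the shares of all measured genes with both antibodies. Some of these genes passed the filter through 1 library alone, and their number was not counted. Through shRPAP1 alone came the higher promoters of Pir and Mgst1 (total Pol II) and of Gstt2, Ephx1 and Osgin1 (Ser5P). Through SCR alone came, among others, the lower promoters of Prkaa1 and Sesn3 (total Pol II) and Mafg (Ser5P), and the lower total Pol II body of Dpp3. These shares only describe these libraries. Among partners and regulators of NRF2 10 of 14 bodies were lower in total Pol II (46.7% of all measured bodies) and 11 of 14 in Ser5P (57.4%). In this group Bach1, a repressor that competes for the same DNA elements, held total Pol II body signals of 70.4 and 39.7 (-0.82) and Ser5P body signals of 106 and 37.4 (-1.49). Mafg, a small MAF partner, held 218 and 25.2 at its promoter with Ser5P, the latter under 1 read, so no fold is given. Its promoter held 173 and 107 with total Pol II (-0.68), and its body ratios were -0.58 with total Pol II and -0.97 with Ser5P. Bach1 and, below, Fth1, Ftl1, Slc48a1 and Sqstm1 were picked after their values were seen.

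Heme and iron genes had the smallest share of lower bodies and the medians nearest 0 among the 7 groups. In total Pol II 2 of 7 were lower (46.7% of all measured bodies, group median -0.42) and in Ser5P 2 of 9 (57.4%, group median -0.38). Both medians are genes near background, namely Blvra with 29.4 and 21.9 in total Pol II and Blvrb with 25.05 and 19.2 in Ser5P. These passed the filter through SCR alone, as Fech and Tfrc did with each antibody. Fth1, the ferritin heavy chain, which stores the iron that heme breakdown by HMOX1 releases, held total Pol II body signals of 177 and 183 (0.05) and Ser5P body signals of 482 and 431 (-0.16). Its promoter held 1064 and 592 with total Pol II (-0.84) while Ser5P was 2358 and 1514 (-0.64). Ftl1, the ferritin light chain, differed from it, with total Pol II body signals of 512 and 353 (-0.54) and Ser5P body signals of 1522 and 844 (-0.85). Slc48a1, a heme transporter, had body ratios of -0.92 and -1.11. Sqstm1, the autophagy adaptor p62, which binds KEAP1, held total Pol II body signals of 242 and 218 (-0.15) and Ser5P body signals of 491 and 430 (-0.19). The Sqstm1 promoter held 1069 and 327 with total Pol II (-1.71), and its Ser5P signals were 2252 and 1778 (-0.34). As deposited, Fth1 and Sqstm1 had nearly equal body signal beside a lower promoter signal in shRPAP1. The medians of all measured genes were also lower at promoters (-1.07 with total Pol II, -0.97 with Ser5P) than over bodies (-0.55 and -0.70). Setting the receptor genes equal shifts every body ratio by -0.87 and -0.80, and setting the other silent genes equal by -0.14 and 0.058.

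Glutathione genes included some of the lowest and highest body ratios of the list. Of their measured bodies 8 of 15 were lower in total Pol II (46.7% of all measured bodies) with 1 higher (8.6%). In Ser5P 12 of 22 were lower (57.4%) with 0 higher (8.65%). Chac1, which degrades glutathione, had the highest Ser5P body ratio of the list, at 224 and 295 (0.39), and 92.9 and 122 with total Pol II (0.39). The only body that was higher by the 1.5-fold rule was that of Gstp1, a glutathione S-transferase with near-identical copies, at 21.6 and 60.3 with total Pol II (1.47). It passed the filter through shRPAP1 alone, and it held 96.3 and 69.8 with Ser5P (-0.46). Gpx3, a secreted glutathione peroxidase, was lowest in Ser5P at 66.2 and 16.3 (-2.00), and Gstm5, another glutathione S-transferase, held 71.5 and 21.4 (-1.73), both below the shRPAP1 threshold of 31.0. With total Pol II the lowest bodies were those of Cbr1, a carbonyl reductase, at 30.1 and 6.74, and Glrx5, a mitochondrial glutaredoxin, at 25.4 and 7.24. Both passed the filter through SCR alone and lay below the receptor mean of 11.95 in shRPAP1, so no fold is given. The remaining groups had 4 of 11 thioredoxin and peroxiredoxin bodies lower in total Pol II, 6 of 9 of NADPH supply, 5 of 11 of detoxification and export, and 1 of 2 of superoxide and catalase. The share over all measured bodies was 46.7%.

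Several extremes at promoters of the list rested on a library without coverage or with few reads. Prkaa1, an AMP-activated kinase subunit, and Sesn3, a sestrin, each held 174 in SCR and 0.72, the floor, in shRPAP1 with total Pol II. Pir was at the floor in SCR and held 87.3 in shRPAP1, as did Osgin1 with Ser5P, so no fold is given for these. Mgst1, a microsomal glutathione transferase, held 15.2 and 167 with total Pol II but 102 and 123 with Ser5P. Glrx2, a glutaredoxin, held 58.4, about 2 reads, and 498 at its promoter with Ser5P, but 289 and 260 with total Pol II (-0.15). Gpx7, a glutathione peroxidase family member, held 416 and 93.0 with Ser5P (-2.15).

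**Figure D4:**
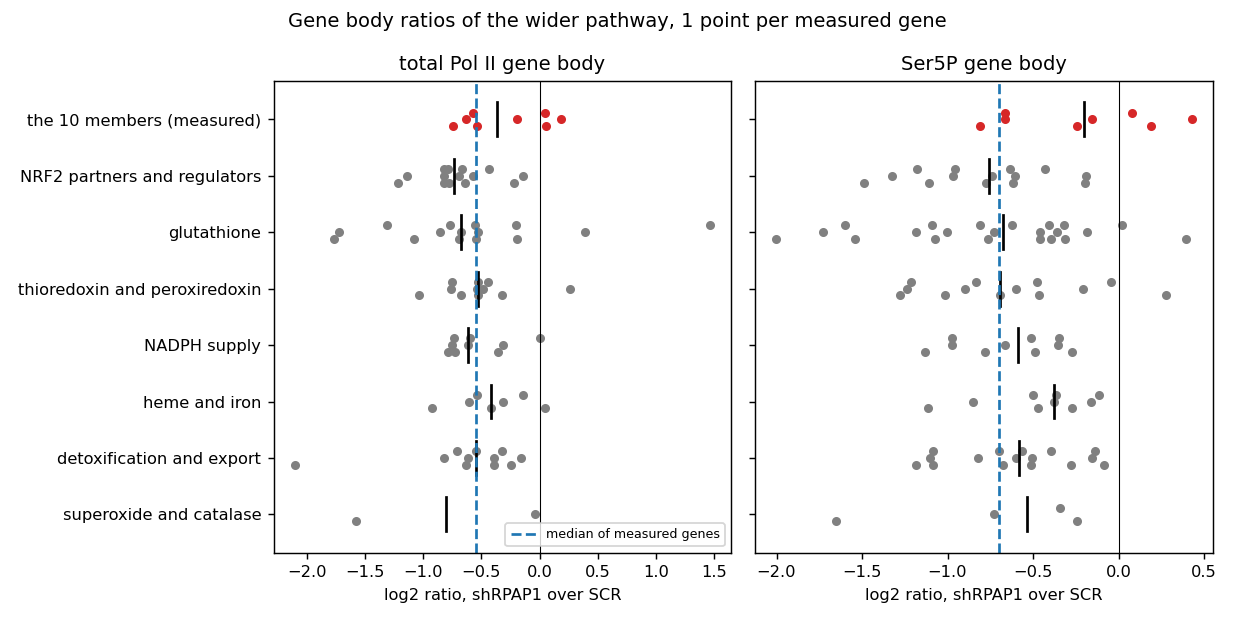
Gene body log2 ratios of shRPAP1 over SCR for the measured members (top, red) and the 7 groups of the wider pathway (grey), 1 point per gene, for total Pol II (left) and Ser5P (right); black ticks are group medians and the dashed line is the median of all measured genes. The members' medians of -0.37 and -0.20 lie right of the dashed line, with heme and iron genes at -0.42 and -0.38 the nearest group in the left panel. The ticks of that group are genes near background (Blvra and Blvrb). Under the stricter filter, not drawn here, the members' medians were -0.54 and -0.66.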

How the data were processed

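Signal was deposited by the authors per gene as a promoter and a gene body value (per the file headers) for 4 ChIP-seq libraries of pooled fibroblast chromatin, mapped to samples by title. The shRPAP1 descriptions name the SCR control, while titles, treatments and hairpins name the knockdown, which was followed. The submitters' processing notes name GRCm38, MACS2 2.0.10.20130712, SAMtools 0.1.16, FastQC and bedtools 2.23.0, without roles. Aligner, filters, input correction and depth scaling: not given in the sources used here.

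Of 36230 rows, 58 repeats were dropped. All 144688 promoter values were whole multiples of 0.721 within 0.006, and the commonest values, at 1, 41 and 81 steps, fit reads of 40 bases, so a promoter read was worth 28.8. Gene body floors fitted best a promoter window of 330 bases and bodies starting 302 bases after the start (45.0% of 2441 floors matched); body reads rest on this and on RefSeq lengths. Log2 ratios used a pseudocount of the 5th percentile of values (0.72 at promoters, 0.33 over bodies). A gene counted as measured when above the 95th percentile of receptor genes in at least 1 of its 2 libraries (SCR and shRPAP1 thresholds for bodies were 25.0 and 34.8 for total Pol II, 18.7 and 31.0 for Ser5P, and for promoters 29.6 and 58.4, then 29.6 and 35.8). Counts used a fold of 1.5. Intervals are exact 95% Clopper-Pearson (ratios) or Poisson (levels) and cover counting error only, since reads are not independent molecules. The planned RNA-seq comparison was not made, as the table holds ChIP-seq columns only. Likeness used genes above 2 times the threshold in all libraries, and for the member with the lowest mean it is not reported here; the 2 highest and 2 lowest genes of the wider list were named per comparison. Members and lists were chosen with earlier results of these data known. Steps were tested on simulated data (Python 3.11.15, pandas 2.3.3, scipy 1.17.1).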

Additional observations from a re-analysis of the deposited data

How the results depend on the processing

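No paired analysis was possible because each antibody has 1 library per condition and the RNA-seq samples that share numbers have no values here; for the same reason no library could be left out. Scaling decided most counts. With the median ratio of all genes set to 1 (a shift of every ratio by 1.07 and 0.55 at promoters and bodies with total Pol II, and by 0.97 and 0.70 with Ser5P), members at least 1.5-fold lower numbered 3, 0, 0 and 0 (total Pol II promoter and body, Ser5P promoter and body) in place of 5, 2, 6 and 3. Members higher numbered 4 at total Pol II promoters in place of 1, and 3 over bodies with each antibody in place of 0. The member medians at promoters became 0.36 with total Pol II and 0.098 with Ser5P, and 13 of the 40 member ratios changed sign, of which 4 had been measured and past 1.5-fold: Nfe2l2 (total Pol II promoter, 0.18), Gclm (Ser5P promoter, 0.24), Keap1 and Txnrd1 (Ser5P body, 0.035 and 0.034). By construction this setting moves every ratio alike. With the receptor genes set equal (shifts of -0.77, -0.87, -0.58 and -0.80), members lower numbered 8 of 10 total Pol II promoters, 8 of 8 bodies and 7 of 8 Ser5P bodies, and members higher 0 total Pol II promoters and 1 Ser5P promoter; 10 member ratios changed sign. With the other silent genes set equal (shifts of -1.19, -0.14, 0.48 and 0.058), 9 promoters and 4 bodies were lower in total Pol II, and 4 promoters and 3 bodies in Ser5P. Members higher numbered 0 total Pol II promoters and 2 Ser5P promoters, and the total Pol II promoter ratio of Nqo1 was -0.35. The first of these shifts rests on few reads, as only Ins2 and Gfap of those 29 genes lay above the shRPAP1 total Pol II promoter threshold. With the mean background subtracted 5 bodies were lower in total Pol II. The stricter filter kept 5 total Pol II promoters, 3 bodies, 9 Ser5P promoters and 5 bodies. Of these, 1 total Pol II promoter, 1 total Pol II body, 6 Ser5P promoters and 3 Ser5P bodies were lower. Members higher under this filter numbered 1 total Pol II promoter and 1 Ser5P promoter. Without a filter Nqo1 and Slc7a11 entered, and 1 total Pol II body and 2 Ser5P bodies were higher. Over all settings 43 counts stayed within 1.5 times and 21 did not. Depth limits the promoters most, where 7 of the 10 genes had no more than 8 reads with total Pol II.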
